A study of Homo sapiens with 42 samples.

Results

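AZD5153 given alone to drug-free PC9 cells was compared with its vehicle in 6 ATAC-seq libraries, 3 of each, out of the 42 libraries of the series. The libraries were chosen by their labels, and genes, classes and distances were taken from the annotated table that the authors deposited for PC9. PC9 is an established lung adenocarcinoma line that carries an activating EGFR mutation. Control cells had been cultured for 21 days with no drug and then for 3 days with DMSO. The AZD5153 cells had the same 21 drug-free days, followed by 150 nM AZD5153 for 3 days. Osimertinib, the EGFR inhibitor used elsewhere in the series, was in neither group. A further 6 PC9 libraries are used here only to show where the response to AZD5153 differed. These were drug tolerant persisters (DTP), kept for 24 days in 500 nM osimertinib, and the sequential combination (combo), with osimertinib for 21 days and then 150 nM AZD5153 for 3 days. The libraries of a group are labelled as biological triplicates of 1 cell line, so they do not stand for other cells of this cancer.

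AZD5153 is a bivalent inhibitor of the BET family of bromodomain proteins. BET proteins read acetylated histones at promoters and enhancers and recruit P-TEFb, the kinase that releases paused RNA polymerase II, and their inhibitors act on transcription without removing acetylation directly. ATAC-seq reports the openness of DNA through the insertions of a transposase, so it measures neither BET binding nor transcription. In a bulk culture, a region that closes in every cell and a region that closes fully in some cells cannot be told apart.

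The counts covered 502962 regions of 502 bp in hg38 coordinates, with library totals of 3989287 to 5113979 in control and 5002523 to 5193390 in AZD5153. Regions with too few counts to test were removed, leaving 126506, of which 69565 were in the authors' annotated table. Levels are given in CPM, the counts of a region scaled by library size and TMM factor to a common total. The regions are all of 1 width, so width does not enter a comparison of levels, while other differences between regions were not corrected. A region is called higher or lower where edgeR's quasi-likelihood test gave a Benjamini-Hochberg adjusted p under 0.05. Pairs of libraries within a group varied by only 0.9499 to 1.03 times what counting noise alone gives, and all AZD5153 pairs and the pair of control 2 and 3 showed no excess over it. The p-values therefore measure little more than the error of counting. Merging libraries that agreed within noise, control 2 with 3 and all of AZD5153, left 32423 regions called against 32690. The DTP and combo libraries stayed separate in that fit and mostly set its spread. That count therefore cannot show what variation between independent cultures would change. A stricter count is given beside the main ones, in which the libraries of a group are summed and the dispersion of HCC2935, another line of the series, is used. All 6 lung epithelial marker promoters were measured and none was called, where 21.3% of all promoters were. Of 45 regions of these genes beyond 1 kb 9 were higher and 10 lower (42.2% called, against 39.6% of all such annotated regions). EPCAM, an epithelial adhesion protein, had 39.3 to 43.4 CPM in control and 36.8 to 39.2 with AZD5153, and KRT8, a keratin, had 36.5 to 37.5 and 40.6 to 46.7 CPM. NKX2-1, the lung lineage factor, had 10.4 to 15.3 and 7.19 to 13.4 CPM. No tested promoter region was assigned to the leukocyte genes PTPRC, CD3E and ITGAM, to the endothelial genes TEK and VWF or to the fibroblast genes COL1A2, COL3A1, DCN and LUM. Of the 5 promoters of other cell types that were measured, CD14 was called higher, at 2.86 to 3.80 CPM in control and 4.69 to 7.42 with AZD5153. CDH5 was called lower, at 10.4 to 15.3 and 3.71 to 4.31 CPM, as was PDGFRB, at 8.11 to 10.2 and 5.03 to 6.26, while PECAM1 and COL1A1 were not called. Any part of other cells in the results was not tested.

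AZD5153 moved accessibility in both directions, with more losses than gains. Among regions of the annotated table the share called was highest away from gene starts. In all, 32690 of 126506 regions were called (25.8%), 14159 higher (11.2%) and 18531 lower (14.6%). With libraries summed, 17854 were called (14.1%), 7074 higher and 10780 lower, and all of them had been called in the same direction. At a change of at least 1 on the log2 scale, 6592 were higher and 10179 lower. The 3 libraries of one group lay wholly above the 3 of the other in 37.5% of all tested regions. The balance depended on the setting, with 15673 higher and 13929 lower when no filter on counts was used and 16390 and 16699 when libraries were scaled by their totals alone. The median changes of the 23 chromosomes ran from -0.04 to 0.06 on the log2 scale.

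Place and level sorted the calls. Within 1 kb of an annotated transcript start, 6648 of 29359 regions were called (22.6%), 3031 higher and 3617 lower. Of the annotated regions beyond 1 kb, 15911 of 40206 were called (39.6%), 6892 higher and 9019 lower. The 56941 tested regions outside the annotated table have no assigned distance. Of these, 10131 were called (17.8%), 4236 higher and 5895 lower. Shares beyond 1 kb are those of annotated regions throughout. The excess of losses at promoters did not hold under every setting, since library sizes alone gave 3789 higher and 2948 lower, no filter on counts 3257 and 1554, annotated regions alone 3693 and 3499, and leaving out AZD5153 replicate 3 2651 and 2610. Regions in first introns had the highest share of losses among the larger classes, with 26.0% lower and 17.8% higher, followed by other introns with 23.4% and 17.7% and distal intergenic regions with 21.3% and 17.3%. Promoter regions 1 to 2 kb from a start had 19.5% and 17.5%. The share called rose with distance, from 20.5% for regions that touched a start to 41.1% for regions 30 to 100 kb away. Within promoters the direction followed the level. In the lowest of 5 equal bins of mean CPM, 13.9% were higher and 8.55% lower, and in the highest bin 5.52% were higher and 18.7% lower. Beyond 1 kb the share of gains stayed between 16.5 and 18.3% over the 5 bins, and the share of losses was 28.3% in the highest. Since precision grows with counts, these shares also carry the depth of each class, whose part was not tested.

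**Figure D1:**
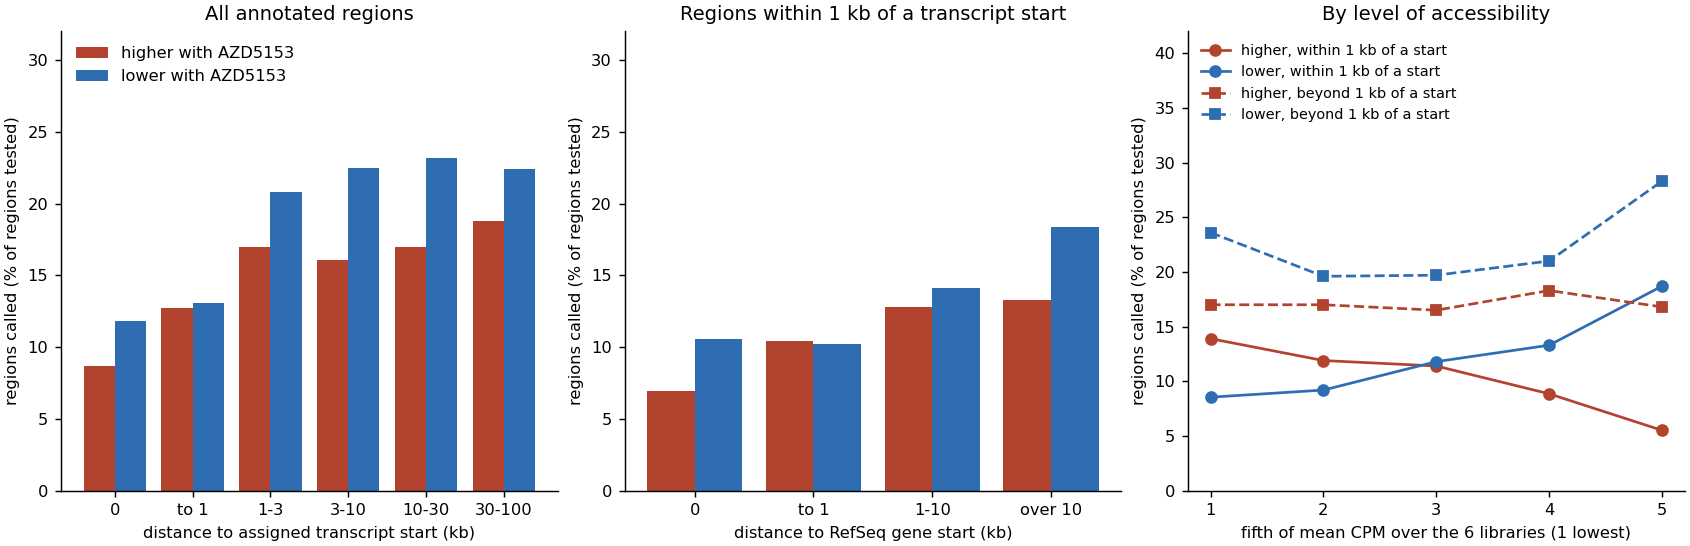
Share of tested PC9 regions of the annotated table called higher (red) or lower (blue) with AZD5153, in % of the regions of each bin. The bars show distance in kb to the assigned transcript start and, for regions within 1 kb of such a start, to the RefSeq gene start, and the third panel shows 5 equal bins of mean CPM; losses rose from 11.8% at a start to 23.2% at 10 to 30 kb, and in promoters from 8.55% to 18.7% with level.

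A transcript start in the annotation is often not the start of the gene. Of the 29359 regions within 1 kb of a transcript start, 23338 could be set against the gene's start in RefSeq. Where the region covered the gene start, 17.6% of 8116 were called, 562 higher and 863 lower, and only 53 rose and 62 fell by at least 1 on the log2 scale. Regions more than 10 kb from the gene start were called in 31.7% of 3782, 504 higher and 694 lower, and 145 rose and 237 fell by at least 1. Of the 12 promoter regions with the largest changes, 11 lay over 1 kb from the RefSeq gene start, up to 157384 bp in TTC7B.

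Few gene starts changed by much, and those with the largest changes are shown with the DNA upstream of them, because the regions that gained or lost accessibility cover at least part of it. They were taken, by a rule set after values were seen, as the largest of the 166 promoter regions, 72 higher and 94 lower, that overlapped the 300 bases around the RefSeq start, were called also with libraries summed and had groups that did not overlap. The promoters of OAS3 and TEAD3, which changed among the gene groups below, and of HEXIM1, which did not, are shown for comparison. Each run is the 250 bases before the start, 5′ to 3′ on the gene's strand, from RefSeq on GRCh38.p14. Capitals mark matches, on either strand, to the letters of AP-1 (TGANTCA), of TEAD factors (GGAATG), of the SP/KLF box (GGGCGG), of the TATA box (TATAAA) and of the box named CCAAT after its letters. They also mark the interferon response letters, which are GAAA repeated after any 2 bases, and the NF-kB letters, which are GGG and TTTCC with any 2 bases between them.
ESM1, chr5:54985594-54985843, minus strand: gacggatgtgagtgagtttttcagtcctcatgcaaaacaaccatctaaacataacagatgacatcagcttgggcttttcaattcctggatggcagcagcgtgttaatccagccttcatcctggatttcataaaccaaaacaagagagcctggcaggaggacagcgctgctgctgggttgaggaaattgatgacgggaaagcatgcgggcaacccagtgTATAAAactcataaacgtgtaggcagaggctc
NAP1L2, chrX:73214852-73215101, minus strand: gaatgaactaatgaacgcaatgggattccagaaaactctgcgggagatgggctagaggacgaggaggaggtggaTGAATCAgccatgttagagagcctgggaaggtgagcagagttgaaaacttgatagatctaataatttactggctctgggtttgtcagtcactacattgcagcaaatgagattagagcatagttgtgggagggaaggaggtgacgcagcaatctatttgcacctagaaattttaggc
S100A3, chr1:153549259-153549508, minus strand: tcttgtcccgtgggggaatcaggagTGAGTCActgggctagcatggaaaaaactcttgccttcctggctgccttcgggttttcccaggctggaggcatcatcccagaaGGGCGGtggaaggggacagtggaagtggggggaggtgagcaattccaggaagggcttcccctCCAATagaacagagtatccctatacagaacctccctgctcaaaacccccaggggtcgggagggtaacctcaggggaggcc
BBOX1, chr11:27040565-27040814, plus strand: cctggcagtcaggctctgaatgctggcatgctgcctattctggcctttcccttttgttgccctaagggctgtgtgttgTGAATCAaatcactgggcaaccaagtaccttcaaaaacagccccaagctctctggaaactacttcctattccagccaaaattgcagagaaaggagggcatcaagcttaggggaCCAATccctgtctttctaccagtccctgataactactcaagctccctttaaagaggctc
DKKL1, chr19:49363627-49363876, plus strand: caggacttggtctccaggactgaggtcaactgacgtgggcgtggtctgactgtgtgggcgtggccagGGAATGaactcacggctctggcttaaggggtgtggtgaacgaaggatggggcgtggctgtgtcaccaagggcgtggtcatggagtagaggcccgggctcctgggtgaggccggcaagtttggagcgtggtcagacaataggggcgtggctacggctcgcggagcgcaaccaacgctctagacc
OAS3, chr12:112938224-112938473, plus strand: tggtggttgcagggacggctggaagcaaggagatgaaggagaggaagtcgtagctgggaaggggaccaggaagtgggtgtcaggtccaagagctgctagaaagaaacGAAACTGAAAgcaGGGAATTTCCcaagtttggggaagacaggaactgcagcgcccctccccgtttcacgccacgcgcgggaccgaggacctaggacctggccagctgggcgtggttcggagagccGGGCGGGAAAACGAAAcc
TEAD3, chr6:35497080-35497329, minus strand: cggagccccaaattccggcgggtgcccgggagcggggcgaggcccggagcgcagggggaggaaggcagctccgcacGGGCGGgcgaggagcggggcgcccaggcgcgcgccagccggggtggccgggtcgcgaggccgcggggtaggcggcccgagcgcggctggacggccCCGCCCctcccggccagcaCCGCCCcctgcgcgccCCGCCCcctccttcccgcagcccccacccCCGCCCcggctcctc
HEXIM1, chr17:45148225-45148474, plus strand: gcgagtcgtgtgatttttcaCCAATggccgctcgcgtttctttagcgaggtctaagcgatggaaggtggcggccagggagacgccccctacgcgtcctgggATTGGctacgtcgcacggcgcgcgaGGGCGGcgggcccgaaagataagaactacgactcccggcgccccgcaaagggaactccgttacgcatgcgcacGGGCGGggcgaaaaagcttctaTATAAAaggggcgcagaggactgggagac

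At the 3 starts with the largest rises no control library was above 5.72 CPM. At ESM1, which encodes the secreted proteoglycan endocan, control libraries had 4.13, 1.27 and 2.23 CPM and AZD5153 libraries 11.2, 9.04 and 13.6. The groups did not overlap, and the log2 fold change was 2.203 (SE 0.26, adjusted p = 7.6e-15). Its upstream bases hold a TATA box 32 bases before the start and no other match of the set, and the region lies upstream of both the box and the start. At NAP1L2, a nucleosome assembly protein gene on chromosome X, the values were 1.91, 3.04 and 2.48 in control and 8.38, 9.97 and 10.6 CPM with AZD5153, a rise of 1.92 (SE 0.27, adjusted p = 5.5e-11). S100A3, a calcium-binding protein gene, had 5.72, 3.80 and 4.22 CPM in control and 11, 12.3 and 14.5 with AZD5153 (log2 fold change 1.48, SE 0.22, adjusted p = 5.2e-10). NAP1L2 and S100A3 each hold an AP-1 match, 176 and 225 bases before the start, and so does BBOX1, which fell, at 172 bases, outside its region. The next in size were CTBP1, a transcriptional corepressor, and the zinc finger gene ZNF343, each at 1.47, and SGPP2, a sphingosine-1-phosphate phosphatase, at 1.36, where control libraries had 6.20 to 9.21 CPM.

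At the 3 starts with the largest falls every control library had at least 6.85 CPM. BBOX1, whose enzyme makes carnitine, had 14.3, 11.4 and 10.4 CPM in control and 1.68, 1.62 and 3.05 with AZD5153. Every control library was above every AZD5153 library, and the log2 fold change was -2.47 (SE 0.26, adjusted p = 2.6e-18). DKKL1, which encodes a dickkopf-like secreted protein, was the most open of this set, with 40.03, 49.2 and 43.4 CPM in control and 8.61, 12.1 and 11.3 with AZD5153 (-2.06, SE 0.13, adjusted p = 2.6e-49). ZNF556, a zinc finger gene, went from 9.53, 6.85 and 7.44 to 1.44, 2.09 and 2.35 CPM (-1.98, SE 0.29, adjusted p = 1.2e-09). The vitamin C transporter gene SLC23A1 (-1.94), the potassium channel gene KCNN3 (-1.91) and the ciliary gene CFAP126 (-1.82) followed. All 12 were called under every alternative in which they were tested, though the rule itself required the call with libraries summed.

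Across promoters, large changes were found mostly at starts with few CpG and low levels. Of 14808 genes with a tested promoter region, 11582 matched a RefSeq promoter by gene ID, and in 7557 the 300-base window, from 250 bases before the start to 50 after it, overlapped the gene's strongest promoter region. The median window held 27 CpG, against 13 in the 43 windows that rose by at least 1 on the log2 scale and 5 in the 45 that fell as far. The median level over the 6 libraries was 19.7 CPM in all windows, 3.73 in those rises and 6.10 in those falls, and the part of level was not tested. The lowest of 4 bins by CpG count, with up to 20, held 24 of those rises and 39 of those falls. Both kinds of start are shown above, since BBOX1 has no CpG in its upstream bases and TEAD3 has 37. The AP-1 letters occurred in 9.28% of the 474 windows called higher, 5.70% of the 860 called lower and 4.87% of all 7557. For the interferon response letters the shares were 5.91, 1.28 and 2.49%, and for the TEAD letters 14.6, 10.6 and 10.0%. SP/KLF letters occurred in 67.5% of those called higher, 73.5% of those called lower and 74.7% of all, and CCAAT in 30.6, 41.5 and 38.0%. The TATA letters occurred in 6.96, 6.16 and 4.94%, and the NF-kB letters in 2.32, 2.33 and 2.26%. Letters of CRE (TGACGTCA) occurred in 1.48, 1.98 and 3.41%, of ETS factors (CCGGAAG) in 18.4, 15.7 and 20%, of forkhead factors (TGTTTAC) in 3.16, 2.21 and 2.12%, of the E-box (CACGTG) in 6.54, 11.4 and 10.2% and of NRF1 in 1.48, 1.51 and 2.43%, and none of these is in the sequences above. These shares describe letters, not bound factors, and were not tested.

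The largest gains at annotated promoters opened regions that control cells had nearly closed. In MACF1, which links microtubules to actin, an internal start at chr1:39204622-39205123 had 0.953, 0.761 and 0.992 CPM in control and 9.57, 6.96 and 6.80 with AZD5153. The groups were far apart, at 8.38-fold by the fit (log2 3.07, SE 0.37, adjusted p = 2.1e-14). In CD59, an inhibitor of complement attack on the cell membrane, a region at chr11:33723222-33723723 went from 1.91, 3.04 and 3.47 to 21.5, 21.6 and 20.4 CPM, a 7.29-fold rise (log2 2.87, SE 0.21, adjusted p = 4.2e-35). The CD59 region at chr11:33736306-33736807, over the gene's most open start, had 27.8 to 29.2 CPM in control and 25 to 29.7 with AZD5153 and was not called (log2 fold change -0.02, adjusted p = 0.92). ACSL3, a fatty acyl-CoA synthetase gene, had 3.18, 1.77 and 3.22 CPM at an internal start in control and 15.3, 14.6 and 15.5 with AZD5153 (log2 2.47, SE 0.23, adjusted p = 2.6e-22). Rises of 2.77 at FBXO42, a ubiquitin ligase subunit, 2.75 at NAPG, a vesicle fusion adaptor, and 2.44 at TTC7B, a lipid kinase scaffold, were of the same order. In all 6 the groups did not overlap.

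The largest promoter losses took open internal starts down to a few counts. At OAS1, the antiviral oligoadenylate synthetase, the region at chr12:112916349-112916850 had 10.2, 10.9 and 11.7 CPM in control and 0.718, 0.696 and 0.938 with AZD5153, which is 0.0742 times the control level (log2 -3.75, SE 0.33, adjusted p = 4.8e-25). INPP5K, an inositol phosphatase, had 13, 12.7 and 8.93 CPM in control and 1.20, 0.464 and 0.938 with AZD5153 (-3.68, SE 0.32, adjusted p = 1.1e-25). At CLSPN, the checkpoint adaptor claspin, an internal start went from 9.53, 9.38 and 8.18 to 0.957, 0.696 and 0.704 CPM (-3.47, SE 0.35, adjusted p = 1.1e-19). The most open CLSPN start, at chr1:35769774-35770275, kept 20.6 to 21.0 CPM in control and 18.8 to 27.8 with AZD5153 and was not called (0.19, adjusted p = 0.27). DENND10 (-3.51), the zinc finger gene ZKSCAN1 (-3.41) and the amino acid transporter gene SLC7A8 (-3.22) completed the set. The authors' peak lists, read at a −log10 q of at least 3, held a peak in all 3 control libraries at each of these 6 regions. They held none in AZD5153 libraries except at SLC7A8, with 1.

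**Figure D2:**
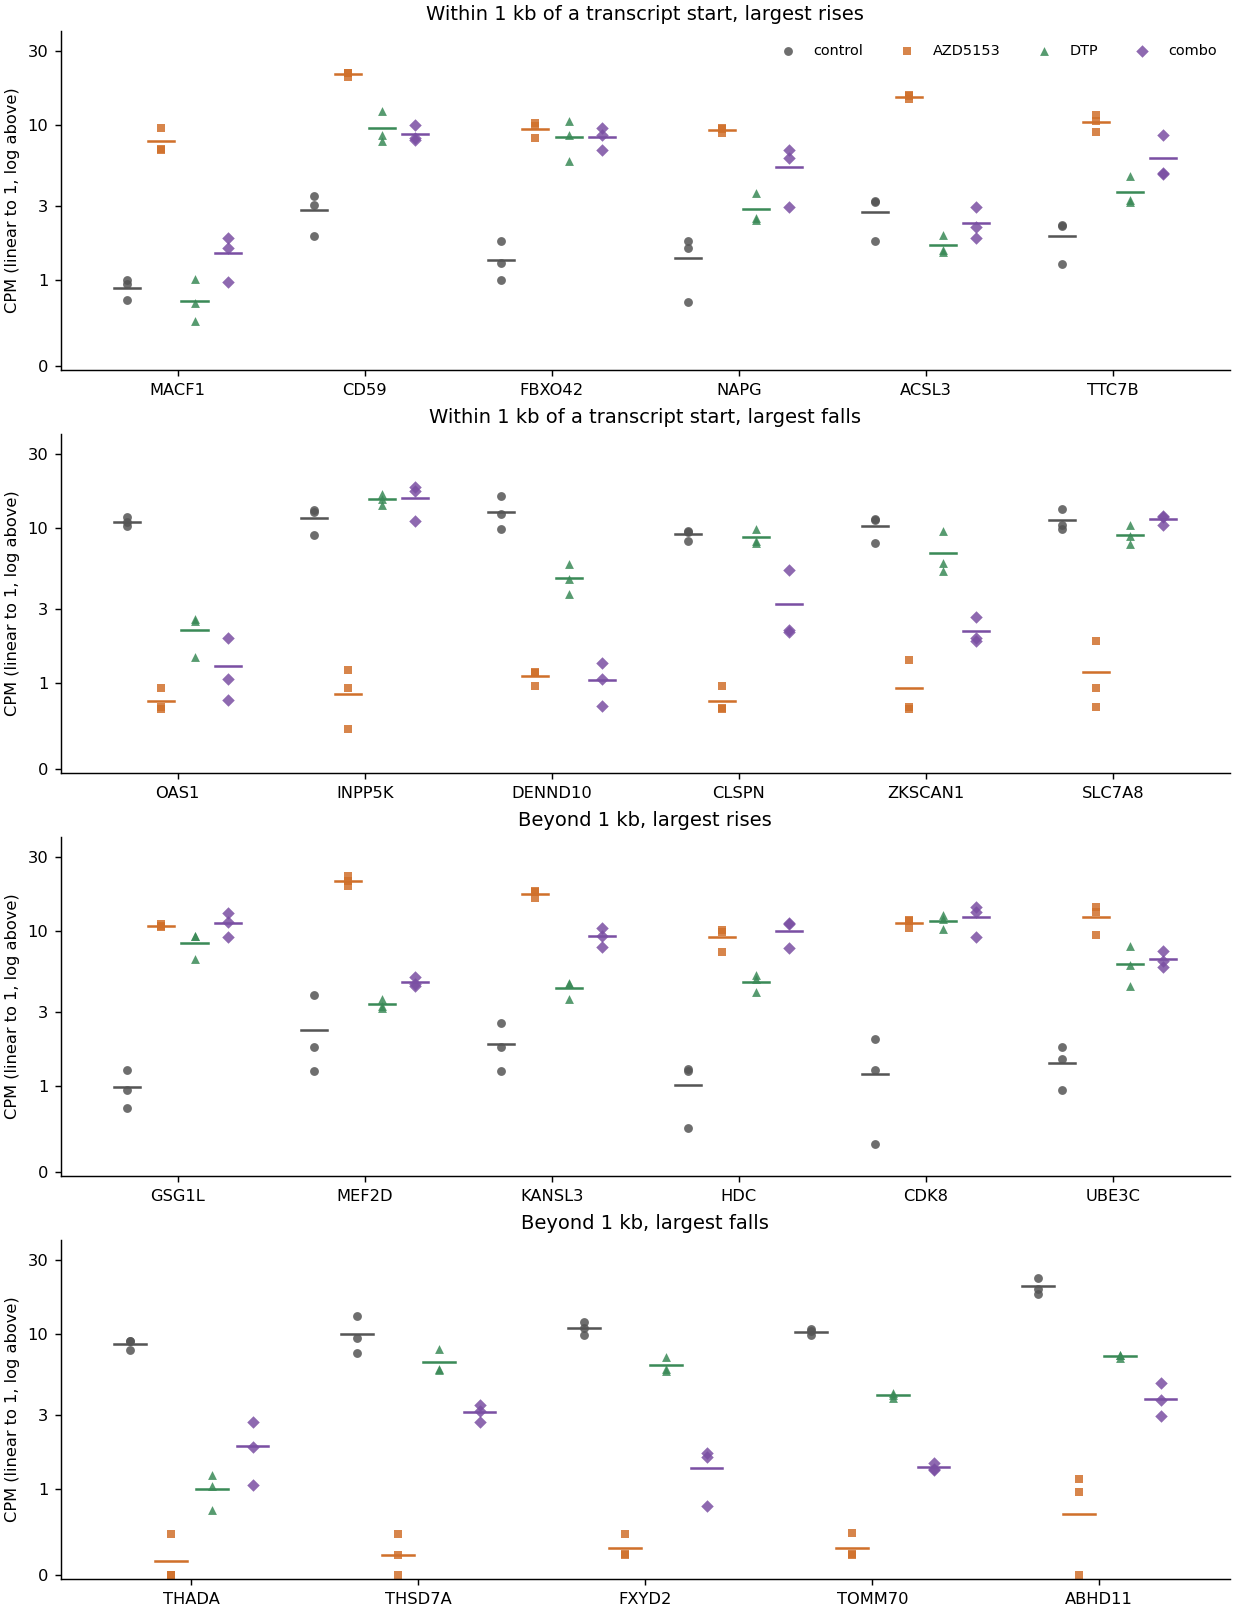
CPM of each library (points) and group means (lines) at 23 of the 24 regions with the largest rises and falls with AZD5153 by the named-region rule, on an axis that is linear to 1 and logarithmic above. Control (grey) and AZD5153 (orange) points do not overlap at any of the 23 regions, and DTP (green) and combo (purple) points are given for the same regions, as at THADA, where DTP stayed at 0.751 to 1.22 CPM.

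Away from starts the changes were larger still. MEF2D, a transcription factor gene, gained a region 2275 bp downstream of a start, from 3.81, 1.77 and 1.24 CPM in control to 22.5, 19.5 and 20.9 with AZD5153 (log2 3.26, SE 0.23, adjusted p = 6.2e-39). KANSL3, a subunit of a histone acetyltransferase complex, gained one 1611 bp upstream of a start, from 2.54, 1.77 and 1.24 to 17.7, 16.2 and 18.1 CPM (3.25, SE 0.25, adjusted p = 6.9e-33). A region assigned to CDK8, the Mediator kinase, 59198 bp downstream of a start, rose from 0.318, 1.27 and 1.98 to 11.5, 10.4 and 11.7 CPM (3.12, SE 0.30, adjusted p = 3.4e-21). CDK8's own promoter went the other way, from 16.2, 18.5 and 24.1 to 15.3, 15.1 and 13.8 CPM (-0.43, adjusted p = 0.014), and that small fall was not called with libraries summed. Intronic regions of GSG1L, an auxiliary subunit of AMPA receptors (10.6-fold), and of HDC, the histidine decarboxylase gene (8.87-fold), and a distal region of the ubiquitin ligase gene UBE3C (8.34-fold) rose as well. The losses left so few counts that they are given as ratios of summed counts with exact 95% intervals, which cover counting error only. In an intron of THADA, 95 counts in control stood against 2 with AZD5153, a ratio of 0.0194 (0.00232 to 0.0722). In THSD7A 108 stood against 3 (0.0256, 0.00521 to 0.077), and in an exon of FXYD2, a subunit of the sodium pump, 122 against 4 (0.0303, 0.00812 to 0.0795). TOMM70, a mitochondrial import receptor, had 115 against 4 in its 3′ UTR, and a distal region of ABHD11 had 222 against 9.

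Near-complete losses were more frequent than near-complete gains. By limits chosen after seeing the data, 100 regions had at least 5 CPM in every control library and under 1 in every AZD5153 library, and 8 had the reverse. The 100 losses lay on 21 chromosomes, 7 of them within 1 kb of a transcript start, with a median of 7.31 CPM in control and 0.625 with AZD5153. A neighbouring tested region within 5 kb existed for 51 of them, and it was called lower in 26 and higher in 5. The 8 gains included a promoter region of SYT14, a synaptotagmin gene, at 0.635 to 0.992 CPM in control and 5.80 to 6.70 with AZD5153. In general, neighbours moved together over short distances. Among called losses with a neighbour less than 1 kb away, the neighbour was called lower in 25.4%, against 12.6% of all such neighbours, and higher in 6.61%. Among called gains it was called higher in 19.5%, against 9.93%. At 20 to 100 kb these shares were 17.8 against 15% for losses and 14.5 against 12.1% for gains.

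The authors' peak lists show which calls were peaks in 1 group alone. All 3 AZD5153 lists and no control list held a peak at 1936 of the 14159 regions called higher (13.7%), and at 3587 of all tested regions (2.84%). All 3 control lists and no AZD5153 list did so at 1454 of the 18531 regions called lower (7.85%), and at 1637 of all tested regions. All 6 lists held a peak at 35.8% of the regions called higher and 40.2% of those called lower, against 35.5% of all tested regions. At such called regions the change was in the height of a shared peak. The lists come from the same reads as the counts and are no separate evidence. The share of all counts that fell in promoter regions was 34.4, 34.5 and 34.8% in control and 36.3, 35.9 and 34.8% with AZD5153. These ranges overlapped at AZD5153 replicate 3, and the exact two-sided permutation test gave p = 0.2 where 0.1 is the smallest that 3 against 3 allows.

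Some genes had many more losses than gains. Of the 1031 genes with at least 10 tested regions, 543 had more losses than gains and 338 more gains. At CD82, a tetraspanin of the cell membrane, 12 of 17 regions were called lower and none higher, 10 of them also with libraries summed, and the median change was -0.98. The most open CD82 start fell only from 65.4, 75.0 and 68.5 to 60.5, 58.4 and 49.96 CPM (-0.31, adjusted p = 0.00032). An intronic region 4080 bp from a start fell from 30.5, 27.4 and 28.8 to 5.03, 5.33 and 4.93 CPM (-2.49, SE 0.17, adjusted p = 1.3e-41). A cluster of 4 regions beyond the gene, 4272 to 9468 bp from a start, fell by between 2.17 and 3.38. At AMOTL2, an angiomotin that binds YAP, 10 of 14 regions were lower, by up to 1.49, and 1 region 3212 bp upstream was higher at 1.47. Its most open start was not called, with 36.5 to 40.9 CPM in control and 32.7 to 39.6 with AZD5153. IQSEC1, an exchange factor for the GTPase ARF6, had 10 of 34 regions lower and 1 higher, the largest fall being -2.57 at 89219 bp from a start, but its median change was 0.09. SHANK2, a scaffold protein gene, had 11 of 31 lower and 2 higher.

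Other genes gained. MACF1 had 14 of 34 regions higher and 2 lower. Beside the internal start above, an intronic region 24857 bp from a start rose from 2.54, 2.28 and 2.73 to 7.90, 7.65 and 8.91 CPM (1.68, SE 0.28, adjusted p = 6.8e-08), while a region 586 bp upstream of another start fell from 11.8, 10.1 and 9.67 to 5.26, 3.48 and 4.22 (-1.27). AHRR, the repressor of the aryl hydrocarbon receptor, had 8 of 23 regions higher, led by an intronic region that rose from 0.953, 2.03 and 1.49 to 7.18, 7.42 and 7.51 CPM (2.25, SE 0.32, adjusted p = 2.3e-10). TNRC18, a chromatin protein gene, had 7 of 20 higher. IER2, an immediate early gene, had 7 of 16 higher, mostly in a downstream stretch, where the region 19275 bp from the start rose from 49.2, 48.9 and 42.9 to 70.8, 72.6 and 73.2 CPM (0.62, SE 0.08, adjusted p = 2.8e-13). These genes were chosen for their number of calls, so the counts describe them and were not tested.

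**Figure D3:**
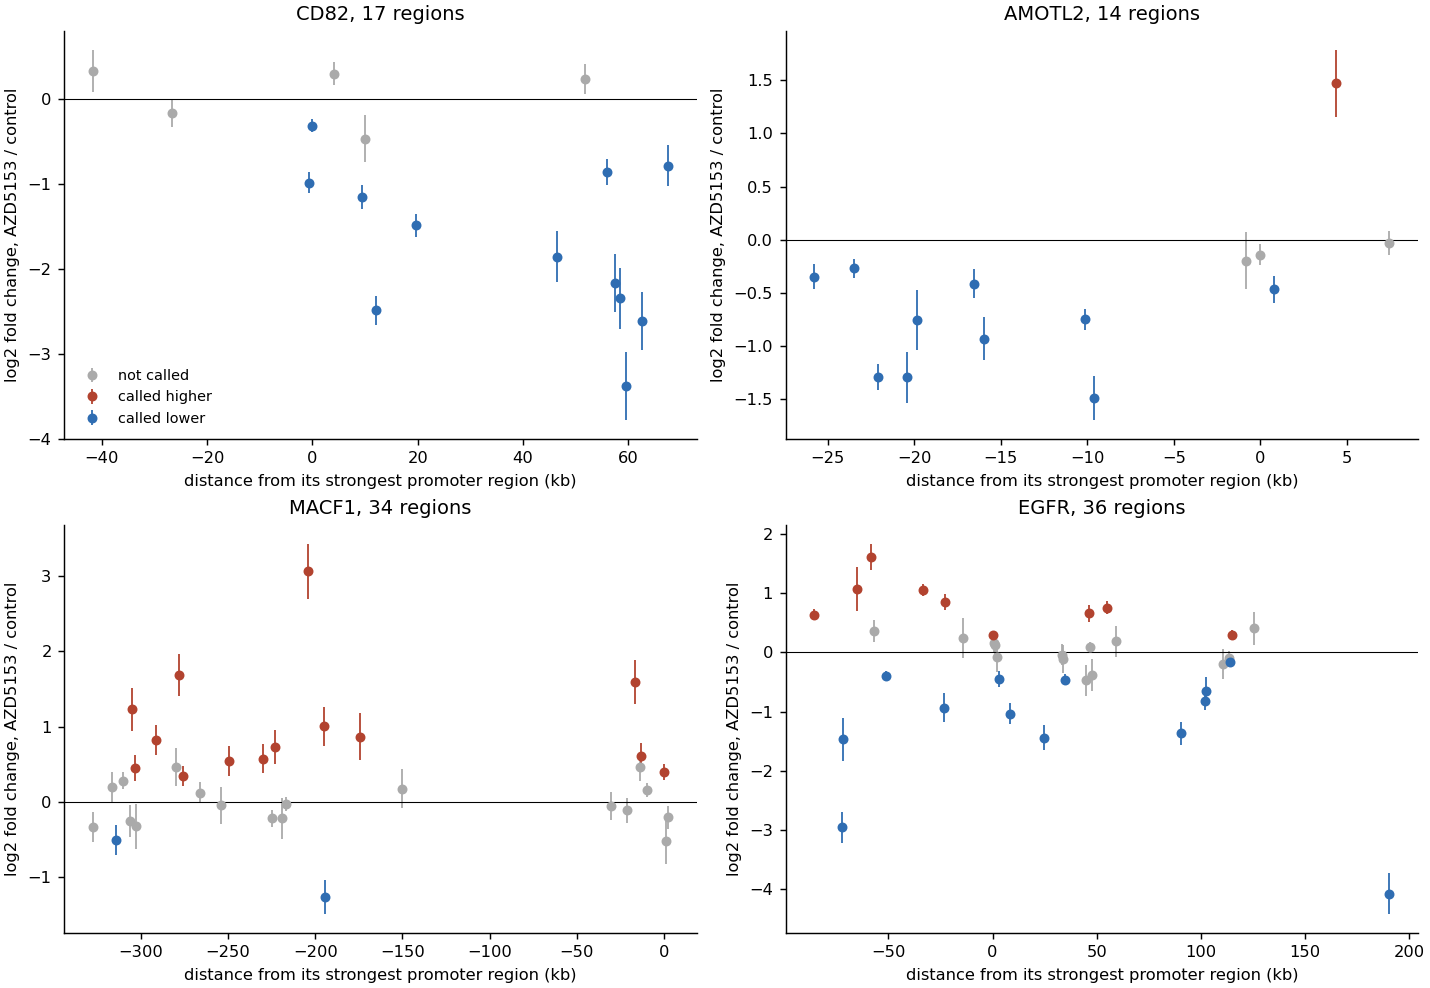
Log2 fold change of AZD5153 against control (points, bars of 1 SE) for each region assigned to CD82, AMOTL2, MACF1 and EGFR, by distance in kb from the gene's most open promoter region. CD82 and AMOTL2 have 12 of 17 and 10 of 14 regions called lower (blue), MACF1 has 14 of 34 called higher (red), and EGFR has 9 higher and 13 lower among 36.

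EGFR, the driver oncogene of PC9, changed in both directions across its locus. Its promoter rose slightly, from 40.3, 51.2 and 47.4 to 61.7, 54.5 and 54.7 CPM (0.28, adjusted p = 0.0041), a call lost with libraries summed (adjusted p = 0.45). Of 36 regions 9 were higher and 13 lower, 5 and 8 with libraries summed. A region 33187 bp upstream went from 30.2, 20.5 and 21.6 to 41.9, 54.3 and 50.2 CPM (1.05, SE 0.10, adjusted p = 9.2e-21). Another 72289 bp upstream went from 15.9, 11.9 and 13.4 to 1.68, 1.86 and 1.64 CPM (-2.95, SE 0.26, adjusted p = 3.6e-25). The largest change was in the 3′ UTR at chr7:55209314-55209815, with 15.3, 9.38 and 9.43 CPM in control and 0, 1.16 and 0.704 with AZD5153, where the groups were far apart (adjusted p = 1e-26). None of the 4 tested regions of MYC, the oncogene whose RNA often falls under BET inhibition, was called lower. The start with the most counts had 39.1, 32.7 and 34.2 CPM in control and 32.5, 32.9 and 32.1 with AZD5153 and was not called (-0.11, adjusted p = 0.48). A region 27 bp from another MYC start rose from 5.40, 6.85 and 7.94 to 13.9, 14.1 and 13.6 CPM (1.02, SE 0.19, adjusted p = 1.9e-06).

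Most genes of the machinery that AZD5153 acts on were not called at their most open promoter regions. HEXIM1, which binds P-TEFb in an inactive complex and whose RNA is a common marker of BET inhibition, had 35.3, 33.2 and 34.2 CPM in control and 36.9, 34.1 and 32.8 with AZD5153. The groups overlapped (log2 fold change 0.02, SE 0.10, adjusted p = 0.93). BRD3 had 25.7, 26.6 and 28.8 CPM in control and 23.5, 24.6 and 21.6 with AZD5153 (-0.23, adjusted p = 0.15), a second BRD3 start fell from 8.26, 12.2 and 13.1 to 4.31, 5.80 and 5.16 (-1.16, adjusted p = 1.2e-06), and no promoter region of BRD2 was tested. In the list of BET and P-TEFb genes 3 of 13 promoters were lower and none higher, with a median of -0.22. The 3 were AFF1 of the super elongation complex (-0.43), LARP7 of the inactive P-TEFb complex (-0.37) and HEXIM2 (-0.27), and none was called with libraries summed. Over all 14808 promoters 7.94% were higher and 13.4% lower (21.3% called), with a median of -0.03, and 302 and 420 were called with libraries summed. Among 13 acetylation and Mediator genes 3 were higher and 1 lower. KAT6A, an acetyltransferase, rose from 6.99, 4.31 and 5.70 to 8.38, 9.74 and 11.5 CPM (0.82, adjusted p = 0.0013), and was the one also called with libraries summed.

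**Figure D4:**
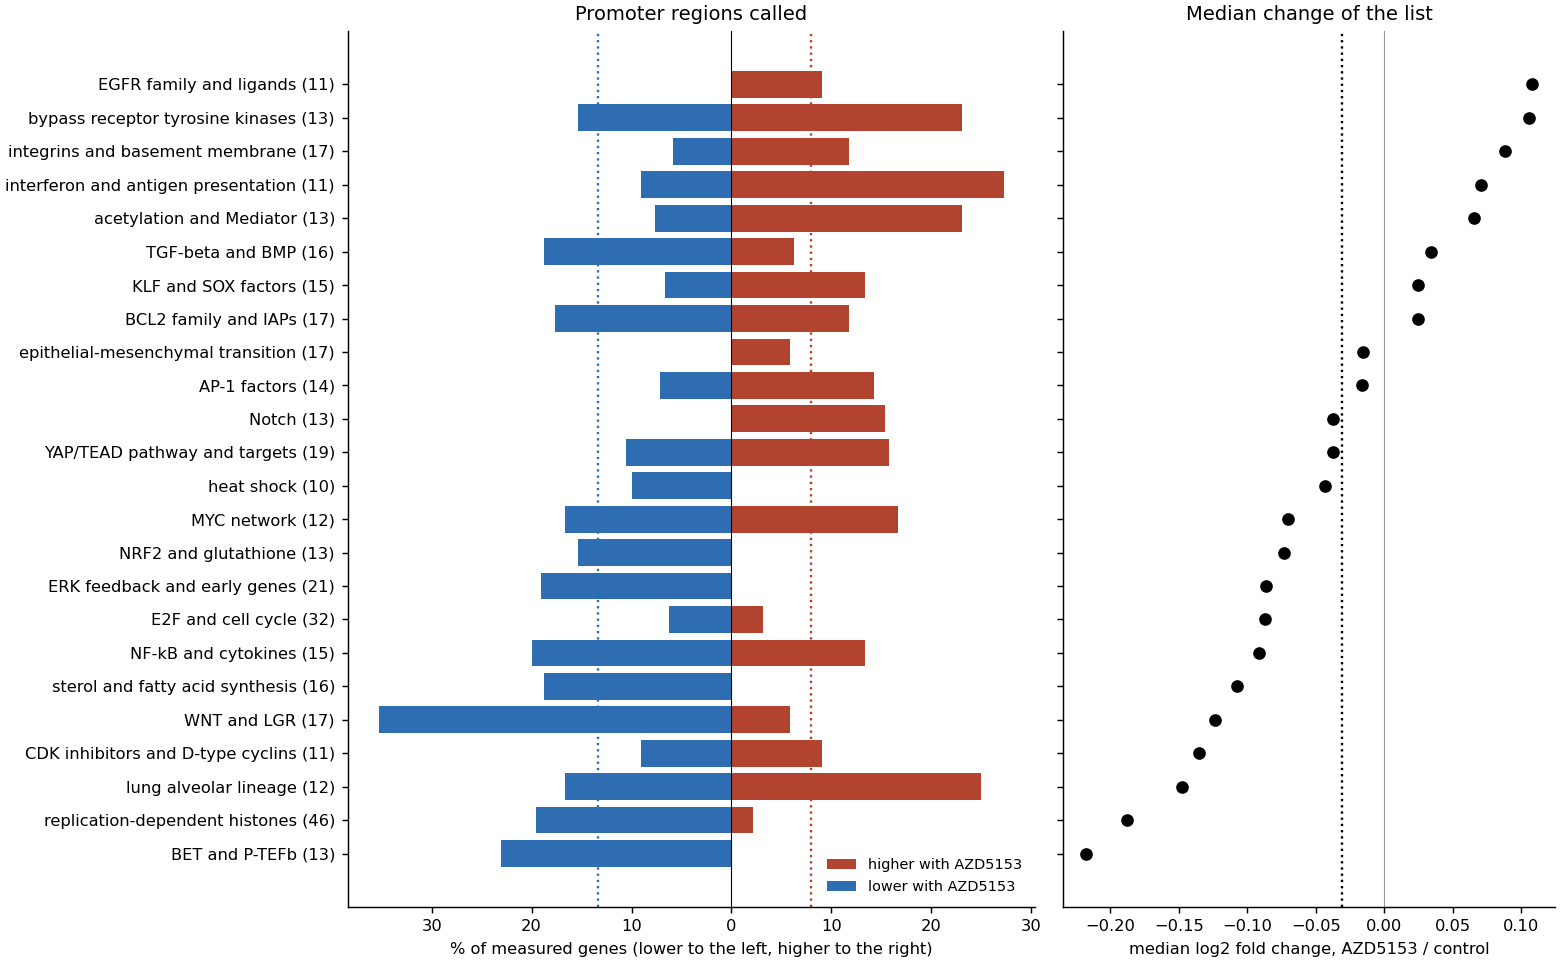
For 24 gene lists, with measured genes in brackets, the % of promoters called lower (blue, left) and higher (red, right) with AZD5153, and the median log2 fold change of the list (points). Dotted lines give the same over all 14808 promoters, 13.4% lower, 7.94% higher and a median of -0.03; list medians run from -0.22 for BET and P-TEFb genes to 0.11 for the EGFR family.

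Of 80 promoter regions named from the lists, 21 were called under every alternative, and leaving out any 1 library ended 15 to 23 calls over all 116 named regions. Among the 21 were those of KAT6A, H1-1, H4C3, H2BC21, H2BC8, BATF2, DUSP2, TEAD3, TEAD2, LATS1, SFTPA1, AQP5, BCL2L1, IL1B, OAS2, OAS3, MX1, INHBA, COL4A2 and THBS1, and the other list calls below rest on fewer settings. Promoters of genes for growth and division moved by small amounts. Replication-dependent histones, which package new DNA, had 9 of 46 promoters lower (19.6%) and 1 higher (2.17%), with a median of -0.19. Over all promoters 13.4% were lower and 7.94% higher, with a median of -0.03. The share called was 21.7% in the histone list and 21.3% over all promoters. With libraries summed 3 histone promoters were lower and 1 higher. H4C3 fell from 20.7, 17.2 and 21.3 to 12.7, 10.9 and 9.15 CPM (-0.85, SE 0.15, adjusted p = 8.3e-07), while the linker histone H1-1 rose from 7.63, 4.31 and 6.45 to 10.1, 10.9 and 13.4 (0.92, adjusted p = 0.0001). Of 32 E2F and cell cycle genes 2 were lower and 1 higher, where 21.3% of all promoters were called, and none with libraries summed. Of 11 CDK inhibitors and D-type cyclins, CDKN1B, the p27 inhibitor, fell from 37.5, 35.0 and 44.6 to 28.5, 26.0 and 27.4 CPM (-0.52, adjusted p = 8.2e-06) and CCND1, cyclin D1, rose from 15.3, 18 and 18.4 to 22, 25.3 and 21.6 (0.40, adjusted p = 0.013). Neither was called with libraries summed. CDKN1A, the p21 inhibitor, was not called at its most open promoter region (-0.19, adjusted p = 0.18). Of its 6 tested regions 3 were higher and none lower, 1 of them also with libraries summed. Away from its promoter CCND1 gained a region 53034 bp upstream, from 1.27, 1.27 and 1.98 to 7.42, 9.74 and 7.51 CPM (2.41, SE 0.31, adjusted p = 2.8e-12), and lost one in its intron, from 34.6, 24.8 and 34.0 to 13.4, 13.4 and 12.9 (-1.22, SE 0.13, adjusted p = 1.2e-17). Of 12 MYC network genes 2 were higher and 2 lower.

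Of 21 promoters of ERK pathway feedback genes 4 were lower and none higher, with a median of -0.09, where 13.4% of all promoters were lower and 7.94% higher. DUSP2, a nuclear MAP kinase phosphatase, fell from 16.1 to 20.3 CPM in control to 9.09 to 10.1 with AZD5153 (-0.94, SE 0.16, adjusted p = 1.5e-07), and was the only one of the 4 called with libraries summed. The ERK phosphatase gene DUSP6 (-0.41), the sprouty gene SPRY4 (-0.49) and DUSP7 (-0.23) were lower in the main test. Of 120 regions of these genes beyond 1 kb, 21 were higher and 35 lower. All annotated regions beyond 1 kb had 6892 higher and 9019 lower of 40206. Of 14 AP-1 factors FOSL1 was lower, from 58.5, 57.3 and 58.0 to 46.9, 49.6 and 46.2 CPM (-0.28, adjusted p = 0.0038), and BATF2 (0.99) and MAFG (0.41) were higher. Only BATF2 of these 3 was called with libraries summed (FOSL1 adjusted p = 0.49). Of the 4 tested FOSL1 regions 1 was higher and 1 lower. Of 13 bypass receptor tyrosine kinases IGF1R (0.61), INSR (0.52) and AXL (0.45) were higher and PDGFRB (-0.65) and FGFR4 (-0.47) lower, none with libraries summed. In the EGFR family and its ligands, EGFR alone of 11 promoters was called.

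Of 19 promoters of YAP and TEAD genes 3 were higher and 2 lower (26.3% called, against 21.3% of all promoters). The 2 lower ones were TEAD factors, which carry YAP to DNA. TEAD3 fell from 20.3, 18.3 and 14.9 to 7.42, 7.42 and 6.57 CPM (-1.30, SE 0.18, adjusted p = 1.6e-11), and TEAD2 from 8.26, 5.58 and 6.94 to 4.31, 2.55 and 2.58 (-1.12, SE 0.27, adjusted p = 0.00045). Both calls held with libraries summed, and of the 6 tested TEAD3 regions 1 was lower and 1 higher. The TEAD2 region lies 1.11 kb from the DKKL1 region described above. LATS1, a kinase that restrains YAP, rose from 2.22, 3.55 and 4.22 to 8.61, 6.49 and 5.63 CPM (1.01, adjusted p = 0.0015), and its partner SAV1 (0.75) and WWTR1, which encodes TAZ (0.45), were also higher. Of 85 regions of these genes beyond 1 kb 10 were higher and 30 lower (47.1% called). Over all annotated regions beyond 1 kb 17.1% were higher and 22.4% lower (39.6% called).

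BCL2L1, which encodes the survival protein BCL-XL, lost most of 1 promoter region. At chr20:31719223-31719724 control libraries had 38.4, 40.3 and 37.0 CPM and AZD5153 libraries 9.57, 11.1 and 11.5, far apart (-1.84, SE 0.13, adjusted p = 1.9e-38, and 9.1e-11 with libraries summed). A second start region of the gene, at chr20:31723403-31723904, had 16.5, 23.8 and 22.6 CPM in control and 25.6, 19 and 20.6 with AZD5153 and was not called (0.03, adjusted p = 0.91), and of 12 regions 2 were higher and 1 lower. Among 17 genes of the BCL2 family and the inhibitors of apoptosis, XIAP (-0.40) and BCL2 (-0.35) were also lower and the proapoptotic gene BBC3 (0.63) and BIRC3 (0.43) higher, none of these 4 with libraries summed. In this list 29.4% of promoters were called, against 21.3% of all promoters.

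Interferon genes rose at the oligoadenylate synthetase cluster on chromosome 12 while the internal OAS1 start closed. OAS2 rose from 2.54, 3.04 and 2.23 to 6.70, 5.80 and 6.57 CPM (1.27, SE 0.29, adjusted p = 0.00016), and OAS3 from 7.94, 10.1 and 8.93 to 16.3, 16.5 and 13.8 (0.77, SE 0.17, adjusted p = 9.8e-05). These regions lie 61.3 and 21.4 kb from the OAS1 region that fell. The OAS1 start at chr12:112906602-112907103 had 10.2, 7.35 and 11.9 CPM in control and 13.4, 10.7 and 11.3 with AZD5153, with overlapping groups (0.26, adjusted p = 0.30). The OAS3 sequence above holds the interferon letters at 143 and 12 bases before the start and an NF-kB match at 130. MX1, an antiviral GTPase, rose from 6.67, 5.83 and 3.72 to 14.1, 10.7 and 9.85 CPM (1.11, SE 0.21, adjusted p = 3.3e-06). Of 11 measured promoters 3 were higher and 1 lower, with a median of 0.07. Over all promoters 7.94% were higher and 13.4% lower, with a median of -0.03. No tested promoter region was found for 13 of the 24 listed genes.

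Of the NF-kB and cytokine promoters 2 of 15 were higher and 3 lower, and of the TGF-beta and BMP promoters 1 of 16 was higher and 3 lower, where 7.94% of all promoters were higher and 13.4% lower. IL1B, the interleukin, fell from 8.90, 8.11 and 7.69 to 2.39, 2.32 and 2.35 CPM (-1.78, SE 0.28, adjusted p = 7.7e-09), and INHBA, an activin subunit, from 5.08, 4.06 and 4.96 to 0.957, 1.86 and 2.11 (-1.49, SE 0.35, adjusted p = 0.00025). Both held with libraries summed. The chemokine gene CXCL3 (0.75) and CSF2, which encodes GM-CSF (0.64), were higher, neither with libraries summed. COL4A2, a basement membrane collagen, fell from 6.67, 4.31 and 5.70 to 1.44, 1.39 and 2.58 CPM (-1.59, SE 0.33, adjusted p = 3.1e-05), while the matrix glycoprotein gene THBS1 rose from 12.7, 12.2 and 13.1 to 27.8, 20.2 and 23.2 (0.90, SE 0.14, adjusted p = 1.3e-08). Beyond 1 kb the integrin and basement membrane genes had 30 of 96 regions higher and 12 lower, with a median of 0.24. Over all annotated regions beyond 1 kb 17.1% were higher and 22.4% lower, with a median of 0.01.

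In metabolism 3 of 16 sterol and fatty acid genes were lower and none higher, 1 of the 3 also with libraries summed. Over all promoters, with which the promoter counts of this paragraph compare, 7.94% were higher and 13.4% lower (21.3% called). IDI1 (-0.23) and HMGCS1 (-0.15) fell by small amounts in the main test. Of 42 regions of these genes beyond 1 kb 17 were lower and 8 higher, where 22.4% and 17.1% of all such regions were. Among 13 NRF2 and glutathione genes NQO1, a quinone reductase, fell from 66.1, 69.5 and 70.2 to 52.9, 49.4 and 49.7 CPM (-0.44, adjusted p = 3.1e-07) and GPX4, the lipid peroxidase, was lower (-0.28), neither with libraries summed. HSF1 alone of 10 heat shock genes was lower (-0.35). Of 17 WNT and LGR genes 6 were lower and 1 higher, the largest share of losses among the 24 lists, with LEF1 (-0.60), FZD2 (-0.49) and CTNNB1 (-0.47), and none was called with libraries summed. Notch genes had 2 of 13 promoters higher, and KLF and SOX genes 2 of 15 higher and 1 lower. Of 17 genes of the epithelial-mesenchymal transition only ZEB1, a repressor of epithelial genes, was called (0.52, adjusted p = 0.0027). Of 12 alveolar genes the surfactant gene SFTPA1 (0.90), the water channel gene AQP5 (0.89) and SFTPA2 (0.45) were higher and CEBPA (-0.38) and SFTPD (-0.31) lower, where SFTPA1 and SFTPA2 are near-identical copies whose reads may be shared.

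In 13.8% of tested regions the log2 fold change between DTP and combo was not that of drug-free cells, by the interaction test. By the labels DTP cells had osimertinib for all 24 days, whereas in combo cells AZD5153 took its place for the last 3, so adding AZD5153 and ending osimertinib cannot be told apart in this comparison or in the interaction. Combo against DTP uses none of the 6 drug-free libraries. Of the regions called higher in drug-free cells, 20.8% were called higher in persisters, where 10.6% of all tested regions were, and 6.52% were called lower. Of those called lower, 30.7% were called lower in persisters, against 11.7%, and 5.43% higher. The median change of the regions called higher was 0.96 in drug-free cells, by which they were chosen, and 0.20 in persisters, and that of the regions called lower was -1.08 and -0.37. The interaction, which shares its libraries with both comparisons, was called in 17424 regions (13.8%), in 4510 of those called higher (31.9%) and in 6433 of those called lower (34.7%).

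**Figure D5:**
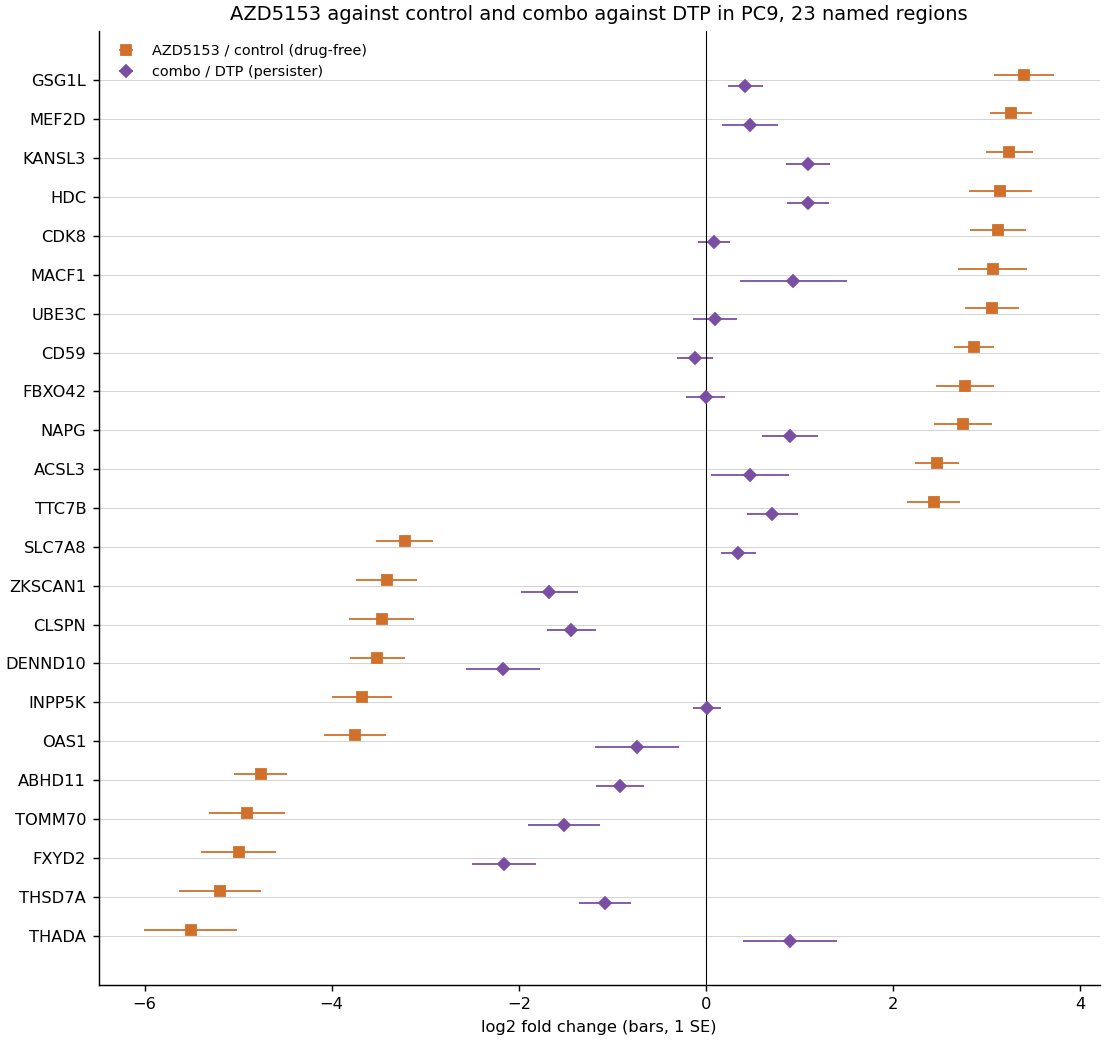
Log2 fold change (bars, 1 SE) of AZD5153 against control in drug-free PC9 (orange) and of combo against DTP in persisters (purple) at 23 of the 24 named regions. The regions were chosen by the orange values; DENND10 fell in both settings, at -2.17 in persisters, while INPP5K at 0.01 and CD59 at -0.12 were not called there.

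Single loci differed in how far the changes were shared. DKKL1 and ZNF556 fell in both settings, with -1.32 and -2.07 in persisters, where ZNF556 went from 11.1 to 15.8 CPM in DTP down to 2.93 to 3.46 in combo. At others DTP was already near the AZD5153 level. The levels of OAS1 were 1.46 to 2.58 CPM for DTP and 0.799 to 1.95 for combo, and those of the distal CDK8 region 10.2 to 12.5 and 9.06 to 14.1, and neither was called there. At others the drug-free loss was not seen. INPP5K kept 13.9 to 16.5 CPM in DTP and had 11 to 18.4 in combo, SLC7A8 had 7.78 to 10.3 and 10.4 to 12, and the BCL2L1 region had 32.8 to 36.6 and 36.0 to 38.5 (combo against DTP 0.09, adjusted p = 0.58). BBOX1 had 23.3 to 30.4 CPM in DTP, above every control library, and 12 to 14.7 in combo (-1.01, adjusted p = 1.5e-10). By gene, 8 of the 12 CD82 losses and 7 of the 10 AMOTL2 losses were also called lower in persisters, 6 of the 7 IER2 gains were also called higher, and none of the 14 MACF1 gains or the 11 SHANK2 losses was shared.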

How the data were processed

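The 6 libraries of drug-free PC9 and the 6 of DTP and combo were used. The authors deposited raw counts per region of 502 bp, a table of annotated regions with the same counts, and a peak list per library with a −log10 q value for each peak. The submitters' processing notes name hg38, BWA 0.7.17, SAMtools 1.9, deepTools 3.4, MACS2 2.2.6, featureCounts 2.0.0 and ChIPseeker 1.29.1, with no order. The protocol in the labels describes immunoprecipitation of H3K27ac, while titles and design give ATAC-seq, which was followed.

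The deposited counts of the 12 PC9 libraries were fitted together with edgeR 4.0.16 in R 4.3.3 (TMM, filterByExpr, quasi-likelihood F test, group means only, adjusted p under 0.05), a step tested on simulated data. SE is the log2 fold change divided by the square root of F. For gene lists each gene's promoter region with the highest mean was taken. Named regions were the 6 largest changes in each direction within and beyond 1 kb of a transcript start, among called regions of protein-coding genes with groups that did not overlap and a mean CPM above the median of tested regions, 1 per gene, plus 4 genes in each direction with most calls in that direction, 8 measured promoters of a preset list and up to 4 called members of each list with the largest change. Gene start regions were named by a rule set later. Some genes that these rules name are not reported here. The members and lists were chosen with earlier results of these data known. Permutation tests used scipy 1.17.1. Same-numbered libraries did not deviate together (correlations -0.007 to 0.008), so numbers were not used as pairs. Sequences and gene starts are from RefSeq, GRCh38.p14. Alternatives were DESeq2 1.42.0, other scalings and filters, the replicate block, libraries left out in turn, summed libraries with the dispersion of HCC2935 and, added after seeing the data, agreeing libraries merged. The authors' distance and annotation columns were used as given.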

Additional observations from a re-analysis of the deposited data

Results flagged for a closer look

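At 22 of the 24 named regions combo against DTP gave another log2 fold change than AZD5153 against control, by a test of the difference itself (edgeR's quasi-likelihood interaction, Benjamini-Hochberg adjusted p under 0.05), and the same held for 17424 of 126506 tested regions. The regions were named by the drug-free change, which enters the difference, so a smaller change in persisters is partly set by that choice. Osimertinib ended when AZD5153 began in combo cells, so the 2 cannot be told apart here. Differences are log2 fold changes of combo against DTP minus those of AZD5153 against control. At a region that rose, a negative value means a smaller rise, no rise or a fall in persisters. A positive value at a region that fell means a smaller fall, no fall or a rise there. At starts that rose they were -2.13 for MACF1 (adjusted p = 0.049), -2.98 for CD59, -2.77 for FBXO42, -1.85 for NAPG, -2.005 for ACSL3 and -1.73 for TTC7B. At starts that fell they were 3.02 for OAS1, 3.69 for INPP5K, 2.03 for CLSPN, 1.74 for ZKSCAN1 and 3.57 for SLC7A8. Beyond 1 kb the regions that rose had -2.98 for GSG1L, -2.79 for MEF2D, -2.15 for KANSL3, -2.06 for HDC, -3.04 for CDK8 and -2.96 for UBE3C. Those that fell had 6.41 for THADA, 4.11 for THSD7A, 2.83 for FXYD2, 3.39 for TOMM70 and 3.84 for ABHD11. At THADA and THSD7A the AZD5153 libraries of drug-free cells had 2 and 3 counts in all, so these 2 values depend on the prior of the fit and are no sizes. At FXYD2 and TOMM70 the same libraries had 4 counts each.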

How the results depend on the processing

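Against 32690 regions called, DESeq2 called 18774 (7146 higher, 11628 lower), a mean of at least 50 counts left 7021, summed libraries 17854 and a log2 change of at least 1 16771. At promoters the 6648 became 3331, 2850, 2074 and 1374 in that order, and the split of 3031 higher and 3617 lower became 3789 and 2948 with library size only and 3257 and 1554 with no filter. The 17424 interaction calls became 7715 with DESeq2, 11329 with no filter, 4475 with a mean of at least 50 counts and 6082 with summed libraries, and their split of 9256 and 8168 became 6825 and 10091 with library size only. Without filter the split over all regions was 15673 higher and 13929 lower. Leaving out 1 library gave 27576 to 28862, 5141 to 5479 and 15127 to 15965 calls, and a promoter share difference of 0.783 to 1.57 percentage points. The replicate block gave 32466, 6619 and 17282, and changed no named call. Agreeing libraries merged, added after seeing the data, gave 32423, 6105 and 16335. HEXIM1, not called, ran from -0.00744 to 0.0690 without AZD5153 replicates 1 and 3 in turn and was 0.135 with no filter, and MYC, not called, changed sign to 0.00814 with no filter. The 24 regions with the largest changes were called in every alternative that tested them, and of 80 named list regions 21 were. For 62 of the 116 named regions summed libraries left the call as it was, and 54 lost it.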
